A study of Mus musculus with 18 samples.

Results

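Mouse embryonic stem cells that lack Dnmt1 and express the W796A mutant of DNMT1 were compared with the same knockout cells that express WT DNMT1. The comparison used 6 of the 18 libraries of the series, 3 with W796A and 3 with WT, chosen by their labels. DNMT1 copies CpG methylation onto the new strand after DNA replication. The mutant replaces the tryptophan at the numbered position with alanine. This residue lies in the first bromo-adjacent homology domain of DNMT1, a module that binds histone H4 trimethylated at lysine residue K20, a mark of heterochromatin and of many repeats. Methylated CpG islands are usually silent, most CpG-poor sequence is methylated in embryonic stem cells, and young repeats depend on maintenance methylation to stay methylated.

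All 6 libraries come from Dnmt1 knockout cells kept in serum and leukemia inhibitory factor. They were transfected with the pPyCAGIP vector, which carries a puromycin selection marker, and selected for stable expression, so the enzyme is a transgene and is not under its own promoter. Several stable lines were made per group, and the labels do not say which line a library comes from. The p-values therefore measure the spread between these libraries. Methylation was read by enhanced reduced representation bisulfite sequencing, in which restriction fragments rich in CpGs are converted with bisulfite and sequenced. The level of a CpG or window is the share of its reads that are methylated, and differences are given in percentage points, W796A minus WT. The 6 libraries held 59776439 to 138978763 CpG calls, and 2451035 CpGs had at least 5 reads in each of them, with a median of 10 to 22 reads. Of 21 promoters of pluripotency genes, 13 were covered, and 12 of these had a mean level under 10% with WT. Expression was not measured, so the labelled cell type was not checked beyond this, and the Dnmt1 promoter was not covered.

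The mean level over the shared CpGs was 46.9%, 59.4% and 56.9% in WT replicates 1 to 3 and 43.7%, 62.6% and 57.9% in W796A replicates 1 to 3. The groups overlapped, and the lowest and the highest library both carried W796A. The difference of the means was 0.344 points (SE 6.85), with an exact two-sided permutation p of 1. Tiles were then picked in each direction for groups that did not overlap, so their separation is part of the choice, and the picked tiles differed in kind. Those higher in W796A, among them tiles at Wdr63, Cyp26b1, Mest, Nefm and Eml2, mostly held no repeat-masked CpG, as did 71.3% of all tiles. Those lower lay wholly in repeat-masked sequence, against 5.87% of all tiles, and shared a stretch of 30 bases. Over all covered tiles with that stretch 1 WT library lay with the mutant. No window passed the adjusted threshold in the unpaired fit. At an unadjusted p under 0.05 that fit held 3886 of 282797 tiles of 1 kb (1.37%), 65 of 19068 domains of 100 kb (0.341%) and 911 of 14165 promoters (6.43%).

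Sequences from tiles with these patterns are printed here from the GRCm38 reference. Each window was chosen as the stretch of at most 300 bases outside annotated exons with the most shared CpGs of its tile, and capitals mark the CpGs that had at least 5 reads in all 6 libraries. The first 4 come from tiles that gained methylation in W796A and the last from a tile that lost it.

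Wdr63, intron (GRCm38 chr3:146107455-146107715, plus strand): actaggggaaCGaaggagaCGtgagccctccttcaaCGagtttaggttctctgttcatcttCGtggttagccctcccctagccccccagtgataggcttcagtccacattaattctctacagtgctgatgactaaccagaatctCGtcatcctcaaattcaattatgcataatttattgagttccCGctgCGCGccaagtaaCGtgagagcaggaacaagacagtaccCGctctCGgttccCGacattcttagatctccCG

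Cyp26b1, intron (GRCm38 chr6:84586624-84586858, plus strand): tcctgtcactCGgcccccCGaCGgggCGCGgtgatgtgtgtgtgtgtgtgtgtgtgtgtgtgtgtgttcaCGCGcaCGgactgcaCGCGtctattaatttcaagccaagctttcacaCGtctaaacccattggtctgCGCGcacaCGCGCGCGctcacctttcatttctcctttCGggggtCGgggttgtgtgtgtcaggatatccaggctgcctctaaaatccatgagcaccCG

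Mest, intron (GRCm38 chr6:30738385-30738612, plus strand): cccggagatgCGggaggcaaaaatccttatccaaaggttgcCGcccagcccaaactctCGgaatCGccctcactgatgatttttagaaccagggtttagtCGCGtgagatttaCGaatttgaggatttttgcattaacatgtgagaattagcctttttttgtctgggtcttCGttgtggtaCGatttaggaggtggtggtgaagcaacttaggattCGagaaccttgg

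Isl2, past the last exon (GRCm38 chr9:55546181-55546444, plus strand): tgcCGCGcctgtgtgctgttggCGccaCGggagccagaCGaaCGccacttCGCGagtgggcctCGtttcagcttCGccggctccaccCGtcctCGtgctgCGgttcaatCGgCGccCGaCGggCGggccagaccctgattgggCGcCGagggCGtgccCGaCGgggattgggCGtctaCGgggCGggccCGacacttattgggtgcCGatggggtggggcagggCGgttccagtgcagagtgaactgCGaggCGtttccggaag

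Repeat nearest to Cts7, intergenic (GRCm38 chr13:61422309-61422608, plus strand): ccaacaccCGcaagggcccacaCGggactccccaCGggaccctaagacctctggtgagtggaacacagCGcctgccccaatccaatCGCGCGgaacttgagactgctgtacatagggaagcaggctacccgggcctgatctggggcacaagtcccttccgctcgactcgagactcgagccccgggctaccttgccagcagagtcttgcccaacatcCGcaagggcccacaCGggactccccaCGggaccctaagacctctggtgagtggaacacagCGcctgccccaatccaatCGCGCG

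The 8 higher tiles described first are those of smallest unadjusted p among tiles with a difference of at least 10 points and with every W796A library above every WT library. The separation of their groups is thus given by the choice and is no result, and none of the 8 passed the adjusted threshold in the unpaired quasi-binomial fit (adjusted p = 1 for each). Counts of single CpGs with groups that did not overlap, given below, describe the same choice. Neighbouring CpGs share reads and are not replicates, and no share over all shared CpGs is given. Of all 282797 tiles of 1 kb, 1.17% had groups that did not overlap with W796A at least 10 points higher and 0.76% with W796A at least 10 points lower. When the mean level of each library entered the same fit as a covariate, 36 tiles were higher and 1 was lower at an adjusted p under 0.05, which is 0.0127% and 0.000354% of the tiles. With the library mean as a fixed offset instead there were 25 higher tiles (0.00884%), of which 21 were among the 37 of the covariate fit. A fit of all 18 libraries gave 14 higher and 3 lower (0.00495% and 0.00106%). The covariate fit removes the shared shift of a library and leaves fewer degrees of freedom.

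Wdr63, which encodes a WD repeat subunit of axonemal dynein, had the largest gain of the 8. Its tile at chr3:146107001-146108000 overlaps the promoter window and held 13 shared CpGs. The level was 2%, 17.8% and 21.9% in the WT libraries and 60.8%, 83.7% and 70.2% in the W796A libraries. These rest on 73 to 287 CpG calls per library, and single CpGs had 5 to 25 reads. The difference was 57.7 points (SE 8.99). All 13 CpGs lie in the window printed above, and at 12 of them every W796A library was above every WT library. Its promoter, taken as 500 bp on either side of the start of the gene, rose from 12.1%, 17.3% and 32.6% to 63.8%, 92.9% and 74.4% in values that did not overlap, with an adjusted p of 0.763 in the unpaired fit over 14165 promoters. Most of its 9 shared CpGs are CpGs of the tile, so these values are not independent of the tile.

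Cyp26b1 encodes the cytochrome P450 that degrades retinoic acid. Its tile at chr6:84586001-84587000 lies in the gene body, and its 20 shared CpGs all fall in the printed window. The WT libraries were at 6.03%, 13.1% and 26.3% and the W796A libraries at 48.8%, 58.6% and 53.0%. The difference was 38.3 points (SE 6.58), and 13 of the 20 CpGs had groups that did not overlap.

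Mest is an imprinted gene that is expressed from the paternal allele. The tile at chr6:30738001-30739000 contains the start sites of 3 annotated Mest transcripts, at 30738050, 30738053 and 30738055, downstream of the first start of the gene. The WT libraries were at 2.94%, 3.49% and 6.61% and the W796A libraries at 33.3%, 27.8% and 34.7%, over 121 to 344 CpG calls. The difference of 27.6 points had an SE of 2.40, the smallest among the 8 tiles. In the printed window all 10 shared CpGs had groups that did not overlap. The tile just upstream, with 6 shared CpGs, went from 4.40%, 2.22% and 14.5% to 29.1%, 36% and 50%. The tile just downstream, with 3, went from 4.44%, 1.33% and 7.41% to 13.3%, 13.6% and 44.4%. The groups thus did not overlap in 3 adjoining tiles. Farther upstream, the tiles starting at 30735001, with 26 shared CpGs, and 30736001, with 3, differed by 18.2 (SE 11.4) and 12.1 points (SE 8.71), and the groups overlapped. A tile starting at 30742001, with 4 shared CpGs, was at 69.0%, 83.7% and 55.9% with WT and 68.2%, 79.5% and 73.3% with W796A, where the groups overlapped.

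Nefm encodes the medium neurofilament chain. Its tile at chr14:68124001-68125000 covers the promoter and held 77 shared CpGs, the most of the 8 tiles, over 961 to 2757 CpG calls. Levels were 20.1%, 27.1% and 45.2% with WT and 56.8%, 81.8% and 78.0% with W796A. The difference was 41.4 points (SE 10.8). The 100 kb domain of Nefm has these 77 CpGs among its 163, so its values are not independent of the tile. It went from 40.5%, 44.4% and 61.9% to 59.2%, 85.2% and 81.2%, and there WT replicate 3 lay above W796A replicate 1.

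Eml2 is a microtubule-associated protein, and its tile had a WT level under 1% in each library. The tile at chr7:19176001-19177000, with 14 shared CpGs at the start of the gene, was at 0.8%, 0.781% and 0.769% in the WT libraries. It was at 26.0%, 61.9% and 26.4% in the W796A libraries. The difference was 37.3 points (SE 11.9), and W796A replicate 2 stood well above the other two. This is the only tile that limma and edgeR passed, with Benjamini-Hochberg adjusted p of 0.00648 in limma and 0.0314 in edgeR's quasi-likelihood test. The WT values rest on 125 to 256 CpG calls and are near the floor. Their SD was 0.0155 points, so little of the spread in these tests came from the WT group. Its shared CpGs lie in the first exon, so no sequence is shown for it.

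Isl2, a LIM homeodomain factor of motor neurons, gained less. The tile at chr9:55546001-55547000 was at 6.51%, 7.86% and 5.21% with WT and 15.0%, 29.8% and 19.3% with W796A, over 49 shared CpGs. The difference was 14.8 points (SE 4.45), and 11 of the 31 CpGs in the printed window had groups that did not overlap. The tile in Spata3, named for spermatogenesis, went from 4.07%, 8.42% and 10.3% to 24.02%, 33.3% and 29.0%. The tile 2998 bp from Barx1, a homeobox gene, went from 6.48%, 12.3% and 20.3% to 29.8%, 36.7% and 30.4%. The gap between the groups was larger than the WT range in Spata3 and smaller than it near Barx1.

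**Figure D1:**
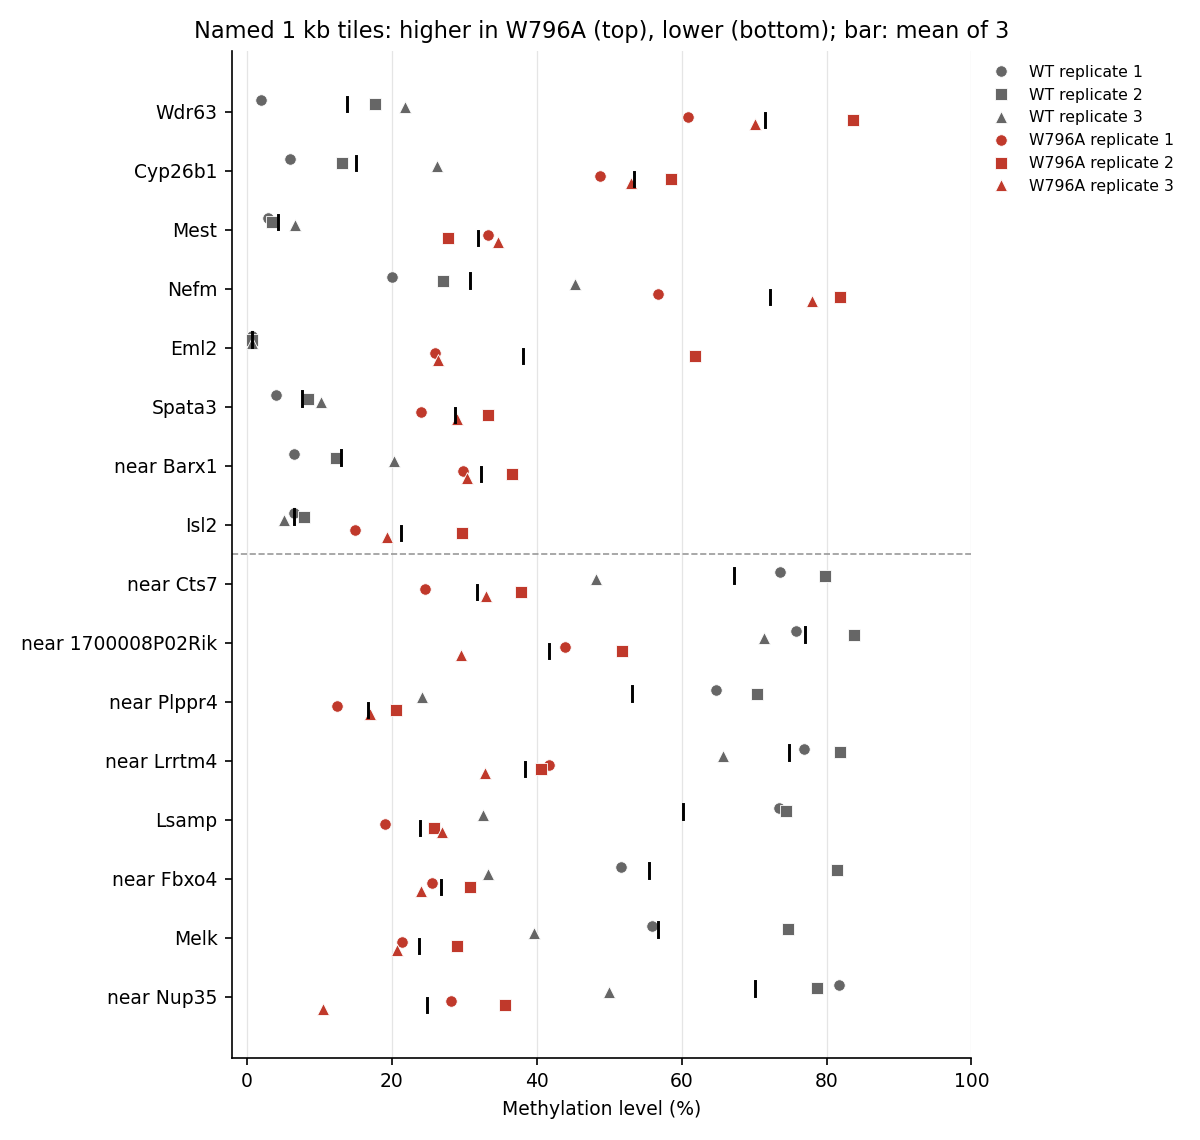
Methylation level (x axis, %) of the 16 named 1 kb tiles in each of the 6 libraries, WT in grey and W796A in red, with a bar at the mean of 3. By the way they were chosen, in the 8 upper tiles the W796A libraries lie to the right of all WT libraries, and in the 8 lower tiles to the left, where WT replicate 3 is the WT library nearest to W796A in each.

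Among the 36 tiles that rose with the library mean as a covariate were those of Wdr63, Cyp26b1, Mest, Nefm, Eml2, Spata3 and Isl2. The 36 are thus not a separate set from the tiles described above. Their differences ranged from 10.1 to 57.7 points with a median of 21.2. All 36 were higher in each of the 3 same-numbered pairs, against 6.04% of all tiles with 10 points or more, and in 31 the groups did not overlap, against 1.17%. The 36 were called on the same 6 libraries, so these shares describe the choice and support nothing. In 32 of them the shared CpGs had on average over 20 reference CpGs within 250 bp on either side, against 10.9% of all tiles, and 30 held no repeat-masked CpG, against 71.3%. The WT mean was under 20% in 27 of them, against 10.9% of all tiles. In 11 the tile overlapped a promoter window, against 6.82%. They also held more CpGs and calls, with a median of 21 CpGs and 530.5 CpG calls per library against 4 CpGs and 62.5 CpG calls.

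The genes at these tiles were not tested for a shared function, and those named here were chosen after their values were seen. Kcna1, a potassium channel gene, went from 3.75%, 11.2% and 9.19% to 18.4%, 41.3% and 29.6% (adjusted p = 0.0104). The tile in Pou4f1, a POU factor of sensory neurons, went from 2.46%, 6.78% and 13.6% to 26.7%, 50.4% and 39.1%. The tile in Gata2, a zinc finger factor of blood, went from 8.42%, 15.4% and 15.0% to 18.1%, 38.7% and 28.4%. These 3 tiles had groups that did not overlap. Of the Iroquois homeobox genes, the tile 2820 bp from Irx2 went from 6.59%, 17.1% and 14.4% to 35.2%, 58.1% and 53.4%, and that in Irx5 from 16.9%, 19.7% and 25.2% to 31.7%, 50.3% and 43.6%. In Irx1 the groups overlapped, at 6.58%, 15.1% and 19.4% against 17.9%, 56.5% and 43.2%. Tiles near Lbx1 and Tlx3, homeobox genes, were also among the 36. The 1 tile that was lower lies 21847 bp from Slfn3 and was at 71.6%, 80.0% and 75.4% with WT and 32.8%, 47.1% and 47.5% with W796A (adjusted p = 0.048).

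This set rested on all 6 libraries. Without WT replicate 1, WT replicate 2, W796A replicate 1 or W796A replicate 2 the covariate fit left 0 tiles in either direction. Without W796A replicate 3 it left 11 higher, and without WT replicate 3 it gave 400 higher and 1319 lower.

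The 8 lower tiles, picked by the same rule in the other direction, were of another kind. All 8 lay wholly in repeat-masked sequence, against 5.87% of all tiles. Of the 8, 6 lay between genes and the others within Lsamp and Melk. Their nearest genes, named only to place them, are up to 308418 bp away. The tile nearest to Cts7, at chr13:61422001-61423000, was at 73.6%, 79.8% and 48.2% with WT and 24.5%, 37.8% and 33.0% with W796A, a difference of -35.4 points (SE 10.4). The tile nearest to Plppr4, at chr3:117285001-117286000, was at 64.8%, 70.4% and 24.2% with WT and 12.5%, 20.5% and 17.0% with W796A. The tile nearest to Lrrtm4 was at 76.8%, 81.9% and 65.7% against 41.7%, 40.6% and 32.9%. In each of the 8 tiles WT replicate 3 was the WT library closest to W796A.

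These 8 tiles share a stretch of sequence, and longer windows were aligned for the tiles nearest to Cts7 and Plppr4 alone. The printed window near Cts7 and the corresponding 300 bases near Plppr4, at chr3:117285686-117285985, are identical at 296 of 300 positions, and the Cts7 window repeats itself with a period of 208 bp, over which 98.9% of the 92 overlapping bases match. A stretch of 30 bases was chosen that all 8 tiles hold and that none of the 8 tiles that gained holds, with the most CpGs among the 7 such stretches:

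Shared 30 bases: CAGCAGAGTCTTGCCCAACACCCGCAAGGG

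Head-to-tail units of this sort stand at the start of young LINE-1 retrotransposons of the mouse. The reference used here has no repeat names, so the copies were not assigned to a family. The 30 bases occur 6448 times in the genome on either strand. Neither of the 2 exact copies in the tile nearest to Cts7 lies wholly within its printed window. Reads from copies that are near-identical can be placed at the wrong copy, so a level at 1 copy is uncertain and the mean over copies is the safer value.

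The 30-base sequence stood in 1941 of the covered tiles, 0.686% of them, and their median difference was -13.8 points. Of these tiles, 1301 or 67% were at least 10 points lower in W796A and 13 or 0.67% at least 10 points higher, against 8.16% and 8.86% of all tiles. Their mean level was 53.5%, 72.6% and 40.9% in WT replicates 1 to 3 and 31.4%, 53.3% and 39.9% in W796A replicates 1 to 3. The groups overlapped, since WT replicate 3 was below W796A replicate 2 and within 1 point of W796A replicate 3. The difference was -14.1 points (SE 11.2). It was -21.5 points without WT replicate 3, -5.64 without WT replicate 2 and -9.05 without W796A replicate 1. Since the sequence was picked from tiles with a loss, it was given no test, and without the named tiles the difference of the other 1933 was -14.02 points.

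Set against all tiles of the same library, the copies were at 93.2%, 101% and 59.0% of the library's level in WT replicates 1 to 3 and at 59.2%, 70.5% and 56.7% in W796A replicates 1 to 3. WT replicates 1 and 2 thus stood apart from the other 4 libraries. The 4 other mutants of the series all carry W465A. There the copies were at 65.4% to 74.6% of the library's level with W465A and 68.98% to 72.3% with W464A/W465A, and at 84.02% to 107% with W465A/W796A and 78.8% to 113% with W464A/W465A/W796A. Beside W465A, every library with W796A thus lay above every library without it in this share, the opposite order to WT replicates 1 and 2 and the W796A libraries. The levels themselves were 16.3% to 26.6% with W465A and 13.4% to 17.2% with W464A/W465A. They were 39.1% to 54.7% with W465A/W796A and 15.7% to 22.6% with W464A/W465A/W796A, so W464A/W465A/W796A overlapped the libraries without W796A. Wholly masked tiles of density over 20 without the sequence differed by less, -6.15 points (SE 8.75), from 50.6%, 67.2% and 50.04% to 37.4%, 60.4% and 51.6%. Their difference was 0.0547 points without W796A replicate 1.

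Domains of 100 kb were also fitted with the replicate number taken as a block. Across tiles, libraries with the same number in both groups deviated together from their group mean, with r of 0.164, 0.189 and 0.111, against at most 0.042 for other pairs. Deviations sum to 0 within each group, so these values are not independent of each other. In their levels, WT replicate 1 and W796A replicate 1 were the least alike of all pairs across tiles. Their SD of differences was 15.9 points and their Pearson r 0.799. The fit with this block, called the paired fit, gave 5 higher and 22 lower of 19068 domains, 0.0262% and 0.115%, where the unpaired fit gave 0. Of the 22 lower domains, 21 held a copy of the 30 bases, against 8.43% of all domains, and none of the 5 higher did. The 30 bases were picked from tiles lower in these same libraries, and the domain nearest to Nup35 holds a picked tile. These shares thus describe that choice and support nothing. The domain nearest to Dmac1 was at 62.6%, 75.4% and 27.2% with WT and 21.2%, 37.8% and 26.0% with W796A (paired fit, adjusted p = 0.00782). The domain nearest to Nup35, with 27 copies, was at 51.3%, 67.4% and 26.7% against 21.8%, 46.2% and 25.2%. In both domains the third pair of libraries differed least. Without the second pair of libraries the paired fit gave 1 higher and 0 lower domains.

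The 5 higher domains were those of Nefm, Isl2, Gimap8, Gm21188 and a protocadherin cluster. The Isl2 domain went from 10.01%, 13.5% and 13.7% to 13.97%, 22.5% and 18.8%, and the groups did not overlap. The Gimap8 domain, of an immune GTPase family, went from 20.8%, 36.7% and 29.4% to 23.97%, 49.3% and 41.9% and overlapped. The Hoxc11 domain went from 9.50%, 16.4% and 16.8% to 16.2%, 22.3% and 19.11%, a difference of 4.97 points that stayed just under the 5-point minimum. Per tile, the paired fit gave 1 call, in Ptger1, a prostaglandin receptor, at 9.09%, 29.3% and 31.7% with WT and 26.5%, 57.7% and 68.1% with W796A (adjusted p = 0.0402).

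**Figure D2:**
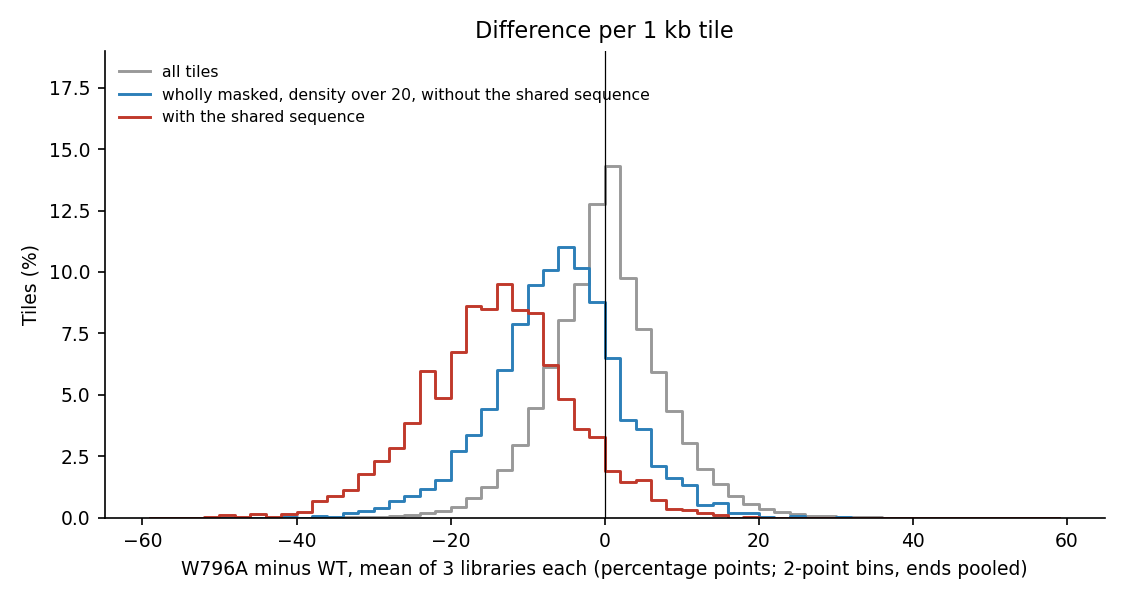
Distribution of the difference per 1 kb tile (x axis, percentage points, W796A minus WT; y axis, % of the tiles in each class). Tiles with the shared 30-base sequence centre on a median of -13.8 points, other wholly masked CpG-rich tiles on -5.86, and all tiles on 0.0638.

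Sequence classes were compared next. CpGs with 1 to 5 reference CpGs within 250 bp on either side were at 63.7%, 79.2% and 78.5% with WT and 59.90%, 84.2% and 79.7% with W796A. CpGs with over 20 were at 7.10%, 10.9% and 8.15% and at 6.63%, 11.4% and 8.94%. The contrast of sparse over dense CpGs differed by 0.568 points (SE 7.54, exact permutation p = 0.9), and the groups overlapped. The contrast of intergenic over promoter CpGs differed by -0.208 points (SE 7.59, exact permutation p = 1). On the log2 scale it differed by -0.24 (exact permutation p = 0.3) and was lower in each same-numbered pair, with differences of -0.34, -0.22 and -0.15, while the groups overlapped.

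Repeat-masked CpGs stood 14.4, 16.5 and 14.2 points above unmasked ones with WT and 10.4, 14.8 and 13.996 points above them with W796A. This contrast differed by -1.96 points (SE 1.52, exact permutation p = 0.4), by -0.644 points without W796A replicate 1, and by -4.75 points at a minimum of 20 reads. On the log2 scale the ratio was 0.40, 0.37 and 0.33 with WT and 0.32, 0.31 and 0.32 with W796A, and the groups did not overlap (exact permutation p = 0.1, the smallest that 3 libraries against 3 allow). By length of the masked run, the mean difference was largest in the longest runs, where the groups overlapped. The length classes were not tested against each other. In runs under 500 bp the groups differed by 0.0789 points, and in runs of 500 to 2000 bp by -1.37 points (SE 8.56). Runs over 2000 bp differed by -7.54 points (SE 8.80), from 56.0%, 72.4% and 54.8% to 41.2%, 64.3% and 55.1%. In masked CpGs of density over 20 the levels went from 37.0%, 49.8% and 33.2% to 25.3%, 41.6% and 33.8%. In both classes the third libraries of the 2 groups were within 1 point of each other. Leaving out W796A replicate 1 changed the long-run difference to -1.39 points, and leaving out WT replicate 2 to -1.86 points.

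CpG-rich promoter CpGs differed little. Those of density over 20 were at 0.943%, 1.79% and 1.39% with WT and 1.33%, 2.49% and 1.76% with W796A, a difference of 0.486 points (SE 0.418). Each same-numbered pair was higher in W796A, by 0.388, 0.702 and 0.368 points, while the groups overlapped (exact permutation p = 0.5). Leaving out W796A replicate 2 made the difference 0.170 points, leaving out WT replicate 1 made it 0.270, and leaving out W796A replicate 1 made it 0.750. As a percentage of the library mean the values were 2.01, 3.01 and 2.44 with WT and 3.05, 3.98 and 3.03 with W796A, which did not overlap (exact permutation p = 0.1).

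**Figure D3:**
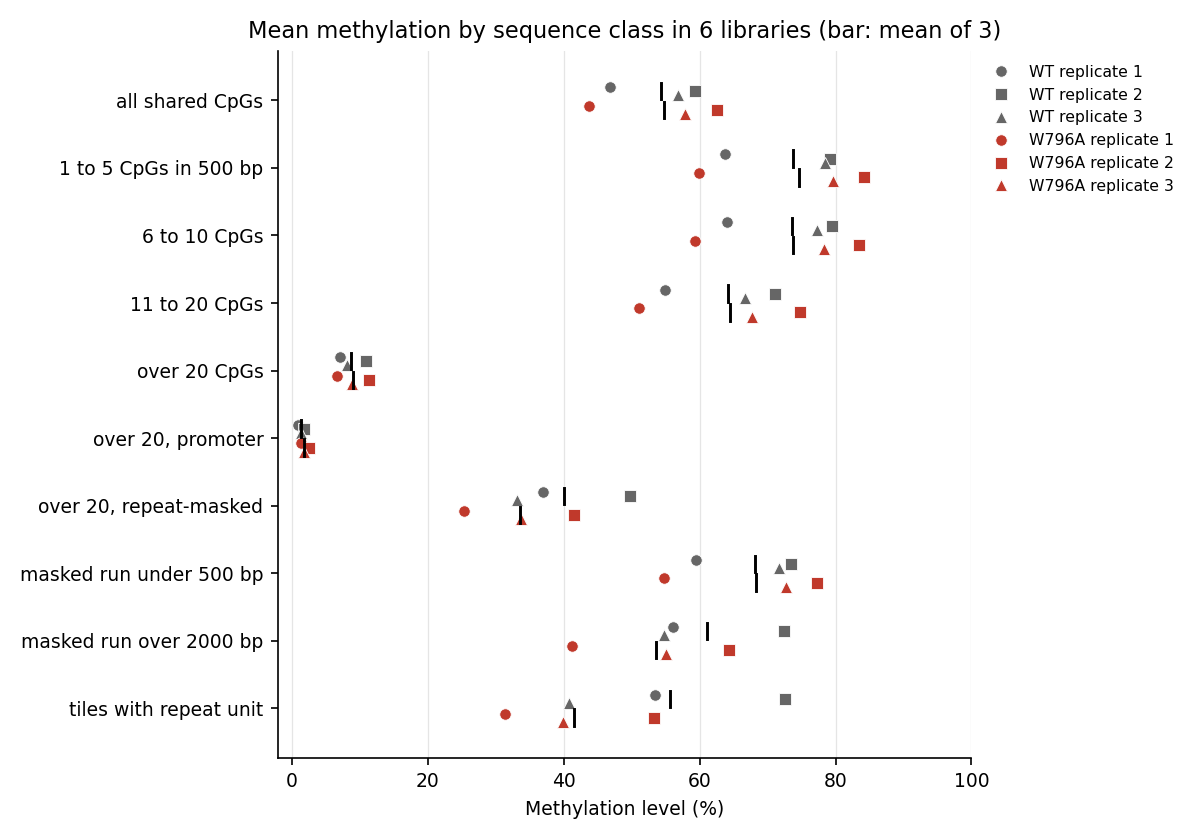
Mean methylation level (x axis, %) of CpGs by sequence class, and of the tiles with the repeat unit, in the 6 libraries, with a bar at each group's mean of 3. The groups overlap in every class, and WT replicate 3 lies beside W796A replicate 3 in all of them.

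Over 14165 promoters of protein-coding genes the median difference was 0.154 points, and none passed in the unpaired or the paired fit. Of these, 541 were at least 10 points higher and 115 at least 10 points lower, which is 3.82% and 0.812%. In 154 promoters, 1.09%, the groups did not overlap with W796A at least 10 points higher, against 10, or 0.0706%, lower. With the library mean as an offset 36 promoters were higher (0.254%), and a fit of all 18 libraries gave 49 higher and 3 lower (0.346% and 0.0212%). Cntnap5b, a cell adhesion gene, went from 4.55%, 4.17% and 3.13% to 40.0%, 55.6% and 34.1%, over 4 CpGs. Ccer2 went from 4.62%, 10.7% and 10.7% to 24.05%, 29.8% and 24.1%. Casp8, an initiator caspase, went from 1.01%, 2.78% and 1.74% to 9.40%, 7.89% and 8.12%. Stx17, a syntaxin of autophagosomes, went from 1.41%, 3.93% and 1.24% to 7.67%, 18.8% and 7.08%. In these 4 the groups did not overlap, and their adjusted p was 0.763 in the unpaired fit.

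Among the promoters of smallest p in the lower direction, Klhl9, an adaptor of a ubiquitin ligase, went from 16.7%, 32.1% and 3.84% to 3.34%, 6.22% and 6.66%, and the groups overlapped. Zfp935, a zinc finger gene, went from 24.8%, 17.1% and 8.85% to 4.07%, 1.89% and 5.26%, without overlap. Hmgcs1, of cholesterol synthesis, went from 0.228%, 25.1% and 3.02% to 0.286%, 0.402% and 0.388%, so its difference rests on WT replicate 2.

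Hox genes, homeobox regulators of body axis that Polycomb represses in stem cells, had a median promoter difference of 1.48 points over 37 of 39 genes covered. Of these, 4 or 10.8% were at least 10 points higher and 0 at least 10 points lower, against 3.82% and 0.812% of all promoters, and in 3 the groups did not overlap, against 1.09%. Hoxc6 went from 0%, 0% and 4.76% to 13.3%, 12.5% and 13.6%. Hoxa6 went from 11.9%, 26.6% and 25% to 30.6%, 37.7% and 29.6%. Hoxb8 went from 2.53%, 16.2% and 14.9% to 16.7%, 27.7% and 23.6%. Hoxa3 had the largest difference, 21.8 points, from 29.4%, 48.6% and 53.0% to 48.9%, 77.7% and 69.8%, with overlap of WT replicate 3 and W796A replicate 1.

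Germline genes, whose CpG-rich promoters are held silent by methylation in somatic and stem cells, had a median of 1.47 points over 28 of 30 covered, with 6 or 21.4% at least 10 points higher and 1 or 3.57% at least 10 points lower, against 3.82% and 0.812% of all promoters. Their mean level with WT was 48.6%, against 9.99% over all promoters, so the shares do not compare promoters of like level. Tdrkh, a piRNA pathway factor, went from 4.20%, 10.4% and 9.41% to 12.9%, 33.1% and 19.04%, which did not overlap. Hormad2, a meiotic chromosome axis gene, went from 17.97%, 32.9% and 49.6% to 26.6%, 75.5% and 48.3%, and the groups overlapped. Rnf17, a tudor domain gene of the testis, had the opposite direction, at 24.1%, 53.3% and 15.6% with WT and 7.69%, 20.7% and 3.88% with W796A.

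Imprinted genes had a median of 0.398 points over 19 covered promoters. Nnat was the extreme at 39.0%, 13.4% and 16.8% against 30.2%, 10.5% and 74.7%, where W796A replicate 3 was the highest library. Promoters of the DNA methylation and heterochromatin machinery had a median of -0.0459 points over 25 covered. The extreme was Dnmt3l, the cofactor of de novo methylation, at 72.7%, 90.0% and 87.9% against 55.2%, 87.1% and 74.5% over 3 CpGs. Trophoblast genes had a median of 0.575 points over 10 covered, and the 13 covered pluripotency genes a median of -0.0183 points, with Dppa4 at 9.62%, 17.6% and 0% against 0%, 2.38% and 2.17%. No gene of any list passed the unpaired fit. The lists were not tested against all promoters.

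**Figure D4:**
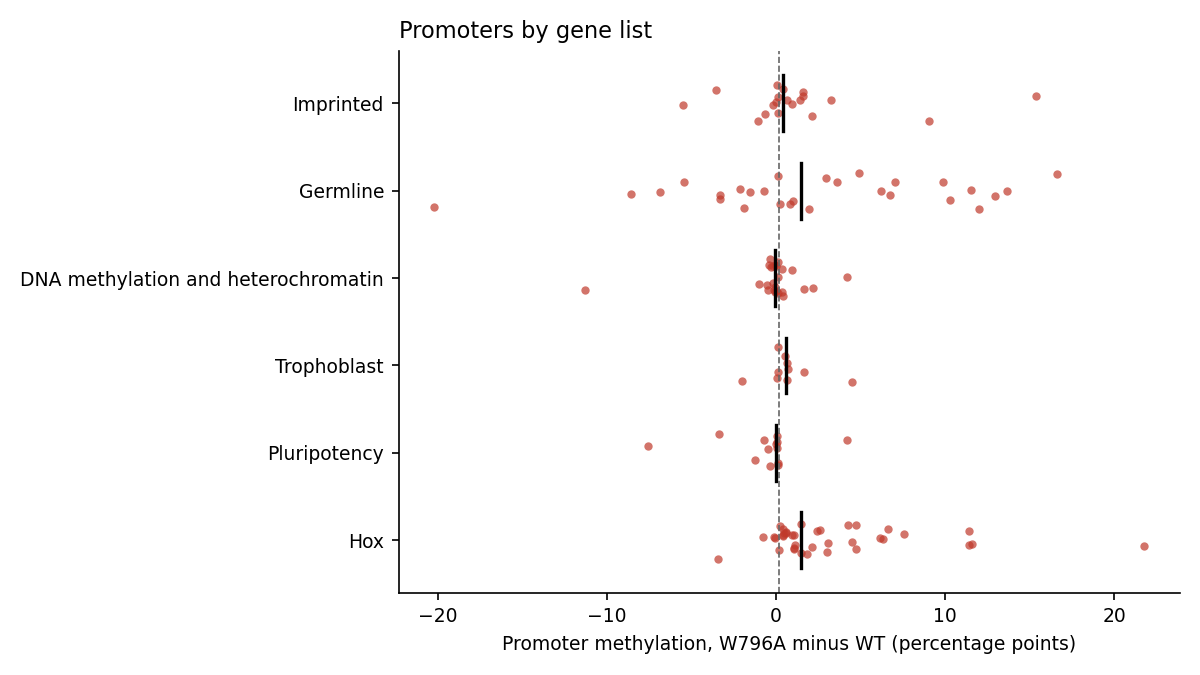
Promoter methylation difference (x axis, percentage points, W796A minus WT) of each covered gene in 6 lists, with a bar at the list median and a dashed line at the median of all 14165 promoters, 0.154. Hox and germline genes spread furthest to the right, with medians of 1.48 and 1.47 points.

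Replicate spread set the resolution of every comparison above. The median SD within a group was 12.6 points per tile, of which 8.39 remained after each library was centred on its own mean. Counting alone gives 5.35 if every CpG call is independent. Neighbouring CpGs share reads, so the part due to counting can be larger. The median SE of a tile's difference was 10.3 points, against a median absolute difference of 4.42 points. The SD of tile differences was 10.3 to 15.9 points for the 9 pairs of libraries between the groups and 10.4 to 14.8 points for pairs within a group. These ranges largely overlap. For 100 kb domains the SD within a group was 9.94 points and 3.87 after centring, with 1.24 from counting on the same assumption.

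**Figure D5:**
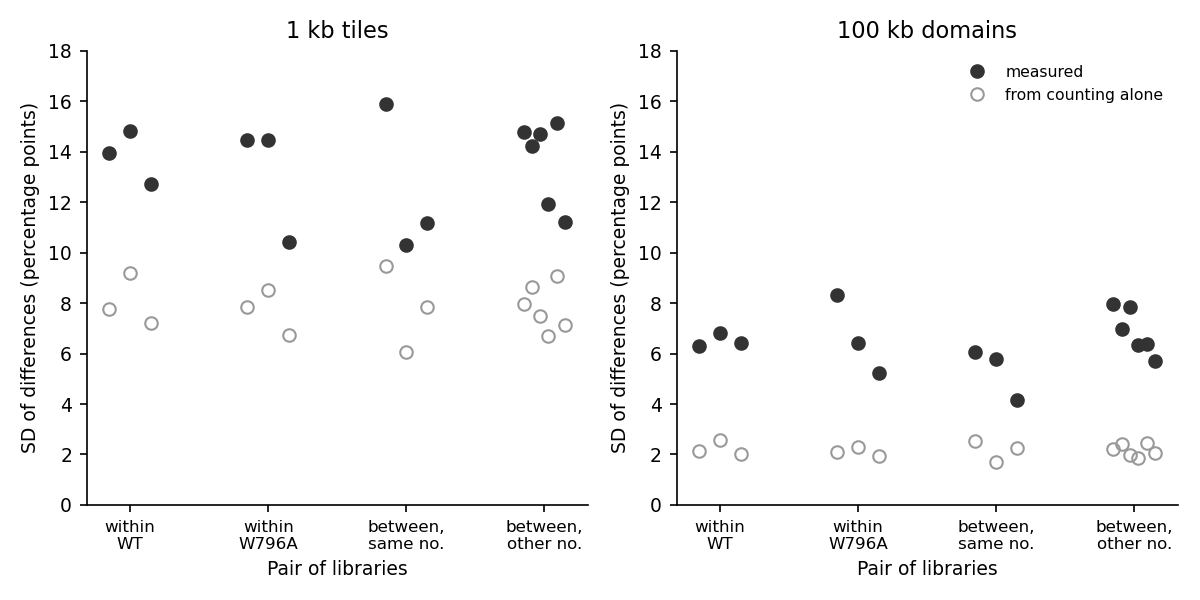
Standard deviation across 1 kb tiles (left) and 100 kb domains (right) of the difference between pairs of libraries (y axis, percentage points). Filled points are measured. Open points are what counting alone gives if all CpG calls are independent, which is too low where neighbouring CpGs share reads. For tiles, pairs between groups span 10.3 to 15.9 and pairs within groups 10.4 to 14.8, and for domains 4.14 to 7.98 and 5.23 to 8.32, the lowest being WT replicate 3 with W796A replicate 3.

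Some of that spread followed chromosomes and replicate numbers. Chromosome 8 took 7.69% of the calls in WT replicate 1 and 6.32% in W796A replicate 1, against 5.33% to 5.56% in the other libraries, and chromosome 11 took 9.44% and 9.58% in WT replicates 1 and 2 against 6.66% to 7.59% in the others. In W796A replicate 1, chromosomes 8 and 11 differed from the other autosomes by -2.73 and -4.93 points, where the other 5 libraries differed by 1.16 to 1.64 and by -1.52 to -1.18 points. The pair of first replicates thus differed by -6.55 points on chromosome 8 and -6.07 on chromosome 11, against -3.23 over all chromosomes. The part of these shares in the other results was not tested. The unpaired fit gave 0 tiles, domains and promoters with or without chromosomes 8, 11, X and Y, so it cannot show their part. Leaving them out raised the domain calls of the paired fit in both directions, with the counts given at the end.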

How the data were processed

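Per the file headers, the authors deposited, for each CpG and library, raw counts of methylated and of all reads, with nothing normalized. The submitters' processing notes name cutadapt 1.2.1, Bismark 0.18.1, Bowtie 1.2 and the builds mm10 and GRCm38. Removal of duplicates is not given in the sources used here, so the error used is that between libraries. All 21867550 positions match a CpG of the GRCm38 reference, with features from GENCODE vM21 and lower-case reference sequence as repeat-masked. CpGs needed 5 reads in each of the 6 libraries. Tiles of 1 kb needed 3 such CpGs and domains of 100 kb 20, and a promoter spans 500 bp on either side of a gene's start. Summed counts were fitted in Python 3.11.15 with a quasi-binomial logistic model whose overdispersion was squeezed as in limma, followed by an F test with Benjamini-Hochberg adjustment over all windows. Windows passed at an adjusted p under 0.05 and 10 points (5 for domains). Alternatives were a replicate block, library mean level as covariate or offset, all 18 libraries, limma 3.58.1 and edgeR 4.0.16 in R 4.3.3. The fits were tested on simulated data. The numbers paired the samples by the rule that each same-numbered r exceeds 0.1, and the labels do not state what a number shares. Named tiles are up to 8 per direction of smallest unadjusted p with groups not overlapping and at least 10 points, and paired-fit calls of 1 sign in all pairs. Named promoters and domains are among the 5 of smallest p per direction and fit, and list genes are the extremes or were chosen after their values were seen, as were the genes named from the 36 tiles. The comparison, the gene lists and these rules were chosen with earlier results of these data known.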

Additional observations from a re-analysis of the deposited data

How the results depend on the processing

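The unpaired fit gave 0 tiles, domains and promoters with coverage minimums of 10 and 20 reads, 5 reads in all 18 libraries and no squeezing. It gave 0 tiles with tiles of 500 bp and 5 kb and with other minimum differences, settings that were run for tiles alone. It gave 3886 tiles, 1.37%, 65 domains and 911 promoters at an unadjusted p under 0.05. With the replicate block there were 1 higher and 0 lower tiles, 5 higher and 22 lower domains and 0 promoters, and the block changed no other call. With all 18 libraries there were 14 higher and 3 lower tiles and 49 higher and 3 lower promoters. With the library mean as covariate there were 36 higher tiles and 1 lower, and as offset 25 higher tiles and 36 higher promoters. Limma and edgeR each gave 1 higher tile.

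Leaving out 1 library gave 0 to 2 higher and 0 to 84 lower tiles, 0 to 4 higher and 0 to 1 lower domains, and both extremes for tiles came without WT replicate 3. It moved the mean difference from -3.59 to 5.87 points, the density contrast from -3.67 to 6.74 the promoter contrast from -4.44 to 5.94 and the repeat contrast from -2.81 to -0.644. With each CpG call counted once the mean difference was -1.14, and on the log2 scale the density contrast was -0.023. The causes were not tested. Alternatives chosen after seeing the data were these. The covariate fit without 1 library gave 0 to 400 higher and 0 to 1319 lower tiles. The paired fit without 1 pair gave 1 to 150 higher and 0 to 81 lower domains, and without chromosomes 8, 11, X and Y 18 and 60. Of 282797 tiles, those with groups not overlapping numbered 3308 higher and 2150 lower, or 1.17% and 0.76%. They numbered 8388 and 5319 without WT replicate 3, and 44510 and 1369 without W796A replicate 1. Groups of fewer libraries separate more readily, and W796A replicate 1 had the lowest mean level, so these counts cannot be compared directly. Single CpGs could have as few as 5 reads, so none was tested on its own.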
